A study of Mus musculus with 8 samples.

Results

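The corticotropin-releasing hormone (CRH) system was examined in RNA-sequencing counts of the ventral tegmental area (VTA) of juvenile mice. Its members were taken by name: the peptide genes Crh, Ucn and Ucn3, the binding protein gene Crhbp and the receptor genes Crhr1 and Crhr2, which are 6 of the 54735 genes in the count table. The study asked how social stress in early life alters the developing VTA. It compared 4 libraries of unhandled controls (CTR) with 4 libraries of socially stressed mice (SS), 1 mouse per library. All mice were of the DBA2/J strain and labelled male. SS pups were placed daily, for 30 min, in the home cage of an unfamiliar gonadectomized CD1 adult male between postnatal day (PD) 14 and PD 21, whereas CTR litters stayed undisturbed with their mothers. The labels give an age of PD 21 and the study's methods give collection at PD 22. Each library holds the RNA of all cells in the punches of 1 mouse, which were 0.5 mm wide and pooled over both sides of the brain. The litter of each mouse is not in the labels used here.

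CRH is a peptide of the stress response that drives the pituitary-adrenal axis from the hypothalamus and also acts within the brain, the VTA included. CRH and urocortin (Ucn) activate the receptor CRHR1, and CRHR2 responds most strongly to the urocortins, of which urocortin 3 (Ucn3) is selective for it. Both receptors are G protein-coupled and act mainly through Gs and cyclic AMP. CRHBP is a secreted protein that binds CRH and urocortin and limits their access to the receptors, and in the VTA it has also been described as taking part in the action of CRH through CRHR2.

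The deepest CTR library was CTR-5 with 39569142 counts on genes, ahead of CTR-2 with 25399538, CTR-3 with 23512478 and CTR-1 with 20036086. Among the SS libraries, SS-3 had 47319997 counts, SS-2 had 41509698, SS-4 had 26024301 and SS-5 had 25248618. CTR-1 and CTR-2 were sparse in genes of low level. Of 1989 genes with a mean of 1 to 3 counts per M (CPM, scaled with edgeR's TMM method), CTR-1 lacked any count of 434 and CTR-2 of 354, and no other library lacked more than 94. Transcripts that differ by sex went against the label of CTR-5 and SS-5. Xist, made from the inactive X chromosome, reached 14997 counts in CTR-5 and 6551 in SS-5 and stayed at 0 to 3 elsewhere. Summed counts of Y-linked Ddx3y, Eif2s3y, Kdm5d and Uty were 3 for CTR-5, 0 for SS-5 and 2293 or more elsewhere. Results for the members are therefore given with and without CTR-5 and SS-5, and with and without CTR-1 and CTR-2.

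All 6 members had a count in at least 1 library, and 4 of them (Crh, Crhbp, Crhr1 and Crhr2) passed edgeR's filter on low counts. Those 4 were compared between SS and CTR with edgeR's quasi-likelihood test, with Benjamini-Hochberg adjustment over all 16538 genes tested and a threshold of 0.05. Fold changes are given on the log2 scale as SS over CTR, each with a standard error (SE). Of the 4 tested members, 0 passed the adjusted threshold in edgeR's test, against 0.0847% of all genes tested. At an unadjusted p under 0.05, Crhbp was the 1 member higher in SS (2.85% of all genes) and Crh the 1 member lower (3.70% of all genes). The groups did not overlap in 1 member, Crhbp, which was above CTR in every SS library (2.47% of all genes), and 0 members were below CTR in every SS library (2.21% of all genes). DESeq2 with default options called 1 member, Crhbp, where it called 0.419% of 19349 genes in either direction and 0.109% as higher in SS. The study itself ran DESeq2 with default options, reported 81 genes and named Crhbp among those upregulated, so this call repeats a published one. No other gene annotated in GENCODE M21 overlaps a member on either strand.

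**Figure D1:**
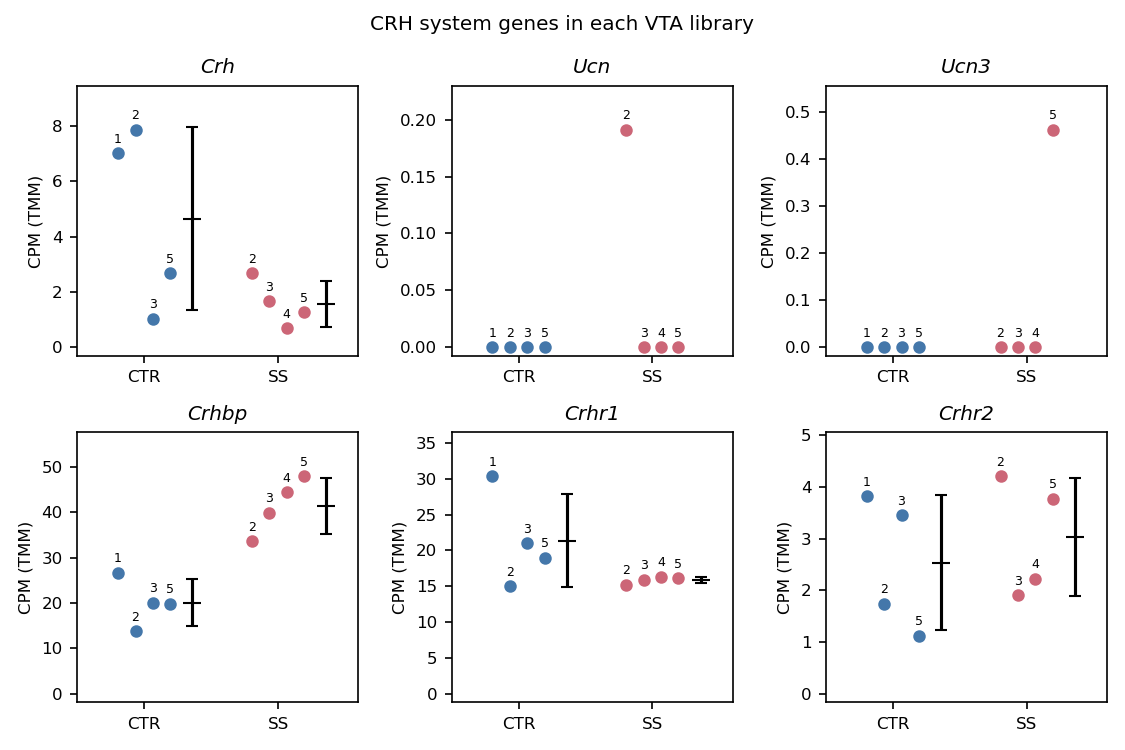
Level of each member in each library, as TMM-scaled counts per M (CPM), with CTR in blue and SS in red and the replicate number beside each point. Bars give the mean and SD of 4 libraries and are left out for Ucn and Ucn3, which had counts in 1 library each. The 4 SS values of Crhbp, 33.6 to 47.9 CPM, all lie above the 4 CTR values, 13.8 to 26.6 CPM, and the groups overlap for Crh, Crhr1 and Crhr2.

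Of the peptides, Crh was the one present in every library. Crh encodes the hormone itself and lies on the minus strand (chr3:19693401-19695396, GRCm38, 2 exons). Its level was 7.88 CPM in CTR-2 and 7.03 CPM in CTR-1, against 2.67 CPM in CTR-5 and 1.04 CPM in CTR-3. SS-2 had 2.68 CPM, SS-3 1.66 CPM, SS-5 1.27 CPM and SS-4 0.678 CPM. CTR-1 and CTR-2 were thus far above the other 6 libraries, and CTR-3 and CTR-5 lay within the range of SS. These values rest on 24 to 195 counts in a CTR library and 18 to 112 in an SS library. CTR averaged 4.65 ± 3.32 CPM and SS averaged 1.57 ± 0.841 CPM (SD, n = 4 each). The log2 fold change was -1.56 (SE 0.66, 95% interval -2.998 to -0.11). Its p in edgeR's quasi-likelihood test was 0.037 before adjustment and 0.75 after. An exact two-sided permutation test of log2 CPM over the 70 assignments of the libraries gave p = 0.20. Without CTR-1 and CTR-2 the log2 fold change was -0.24, and without CTR-5 and SS-5 it was -1.66. The pair of libraries with the highest Crh is the pair in which many genes of low level had no count, and the part of that sparseness in the Crh difference was not tested.

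The urocortin genes were at or near 0. Ucn, whose peptide binds both receptors (chr5:31138063-31138829, minus strand), had 8 counts in SS-2, equal to 0.191 CPM, and 0 in the other 7 libraries. Ucn3 (chr13:3940688-3945349, minus strand) had 12 counts in SS-5, equal to 0.462 CPM, and 0 in the other 7. SS-5 is one of the libraries whose sex transcripts go against the label. Ucn2, the remaining urocortin gene (chr9:108986010-108987164, plus strand), had 0 counts in all 8 libraries. A count of 0 allows up to 0.155 CPM in the shallowest library, CTR-1, and up to 0.0622 CPM in the deepest, SS-3 (3 counts, counting error only). Where a gene has no count in a whole group, the same limit over the pooled counts is 0.0282 CPM for CTR and 0.0210 CPM for SS. In SS this holds for Ucn2 alone, since Ucn and Ucn3 had counts there.

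Crhbp, which encodes the binding protein, was the member with the largest separation of the groups. It lies on the minus strand (chr13:95431371-95444924, GRCm38, 7 exons). CTR-1 had 26.6 CPM, CTR-3 20.04 CPM, CTR-5 19.8 CPM and CTR-2 13.8 CPM. Its level was 47.9 CPM in SS-5, 44.3 CPM in SS-4, 39.9 CPM in SS-3 and 33.6 CPM in SS-2. Every SS library lay above every CTR library, and the highest CTR value, in CTR-1, and the lowest SS value, in SS-2, were 26.6 and 33.6 CPM. The counts behind these values were 341 to 778 in a CTR library and 1177 to 1922 in an SS library. CTR averaged 20.1 ± 5.24 CPM and SS averaged 41.4 ± 6.16 CPM (SD, n = 4 each). On the log2 scale SS exceeded CTR by 1.05 (SE 0.20, 95% interval 0.62 to 1.48).

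The unadjusted p of Crhbp in edgeR's quasi-likelihood test was 0.00020, the rank 27 of 16538, and its adjusted p was 0.12. With DESeq2 the log2 fold change was also 1.05, and the adjusted p was 0.00051. The exact two-sided permutation test gave 0.029, which no arrangement of 4 and 4 libraries can go below. Without CTR-5 and SS-5 the log2 fold change was 0.97 (adjusted p = 0.29 in edgeR's test), and without CTR-1 and CTR-2 it was 1.06 (adjusted p = 0.047). Leaving out CTR-1 alone gave 1.21 (adjusted p = 0.035). The size of the difference was therefore between 0.91 and 1.21 over all fits that left out 1 library, whereas its side of the threshold depended on the libraries and the test.

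The promoter windows of Crhbp, the member whose groups did not overlap, and of Crhr1, the receptor gene set against it below, are shown. RefSeq sequences of 300 bases (GRCm38.p6), from 250 bases before the start in RefSeq to 50 bases from that start on, were at hand for 5 of the 6 members, and Crh was not among them. For Crhbp, Crhr1 and Ucn this start is not the one of the GENCODE positions given for the genes here. The window of Crhbp is chr13:95444782-95445081 on the minus strand and that of Crhr1 is chr11:104132531-104132830 on the plus strand. Both are printed 5′ to 3′ with TATAAA in capitals.
Crhbp: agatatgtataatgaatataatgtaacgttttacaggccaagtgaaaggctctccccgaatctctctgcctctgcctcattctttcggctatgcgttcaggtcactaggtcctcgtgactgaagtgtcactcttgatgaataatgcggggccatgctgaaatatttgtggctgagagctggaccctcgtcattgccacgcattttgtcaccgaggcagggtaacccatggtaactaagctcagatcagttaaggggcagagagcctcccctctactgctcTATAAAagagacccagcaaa
Crhr1: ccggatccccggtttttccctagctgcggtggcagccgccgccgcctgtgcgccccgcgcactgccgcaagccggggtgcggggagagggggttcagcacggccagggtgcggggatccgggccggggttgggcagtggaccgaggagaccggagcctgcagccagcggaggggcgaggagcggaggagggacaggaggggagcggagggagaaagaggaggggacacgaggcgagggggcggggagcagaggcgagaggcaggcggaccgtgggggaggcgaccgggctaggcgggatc
TATAAA, searched on both strands, is at bases 281 to 286 of the Crhbp window, counted from 1 at its 5′ end with the RefSeq start after the first 250 bases, and is absent from the Crhr1 window. The Crhr2 window (chr6:55132967-55133266, minus strand) holds it at bases 212 to 217, before the start. It is found in 13.6% of all 32851 promoters of this length. The windows also differ in base composition, with 48% G and C in Crhbp and 75% in Crhr1, where the median of all promoters is 52.7%.

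The cyclic AMP response element TGACGTCA, searched on both strands, is in the Ucn window (chr5:31138846-31139145, minus strand) at bases 207 to 214 and in none of the other 4 windows. It is in 1.79% of all promoters. Its part TGACG, which the whole element contains, occurs apart from it once, at bases 187 to 191 of the Crhbp window on the opposite strand, and 20.8% of all promoters hold it. The glucocorticoid response element, AGAACA and TGTTCT with 3 bases between them, was in none of the 5 windows and in 0.00913% of all promoters. These matches describe the reference sequence, which is not that of the DBA2/J strain.

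Crhr1 encodes the receptor that binds CRH with high affinity and lies on the plus strand (chr11:104132855-104175523, GRCm38, 13 exons). CTR-1 had 30.4 CPM, CTR-3 21.04 CPM, CTR-5 19.0 CPM and CTR-2 15.03 CPM. The SS values were 16.3 CPM in SS-4, 16.1 CPM in SS-5, 15.9 CPM in SS-3 and 15.2 CPM in SS-2. The SS libraries lay within a narrow range, just above CTR-2 and below the other 3 CTR libraries, and CTR-1 stood highest. CTR averaged 21.4 ± 6.51 CPM and SS averaged 15.9 ± 0.466 CPM (SD, n = 4 each). The log2 fold change was -0.42 (SE 0.21, 95% interval -0.88 to 0.026). Its adjusted p from edgeR was 0.75, and the exact permutation test gave 0.14. It was -0.21 without CTR-1, -0.48 without CTR-5 and SS-5, and -0.33 without CTR-1 and CTR-2.

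Crhr2, the receptor of the urocortins (chr6:55090049-55133016, minus strand, 12 exons), was low in every library. CTR-1 had 3.82 CPM, CTR-3 3.46 CPM, CTR-2 1.74 CPM and CTR-5 1.12 CPM, on 43 to 80 counts. SS-2 had 4.21 CPM, SS-5 3.77 CPM, SS-4 2.22 CPM and SS-3 1.91 CPM, on 59 to 176 counts. The ranges of the groups overlapped, with CTR-5 and CTR-2 below every SS library and SS-2 above every CTR library. CTR averaged 2.53 ± 1.31 CPM and SS averaged 3.03 ± 1.13 CPM (SD, n = 4 each). The log2 fold change was 0.26 (SE 0.53, 95% interval -0.91 to 1.43), and the adjusted p from edgeR was 0.94. Without CTR-5 and SS-5 the direction turned, to -0.11, and without CTR-1 and CTR-2 the value was 0.42. Differences within this interval are not excluded.

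**Figure D2:**
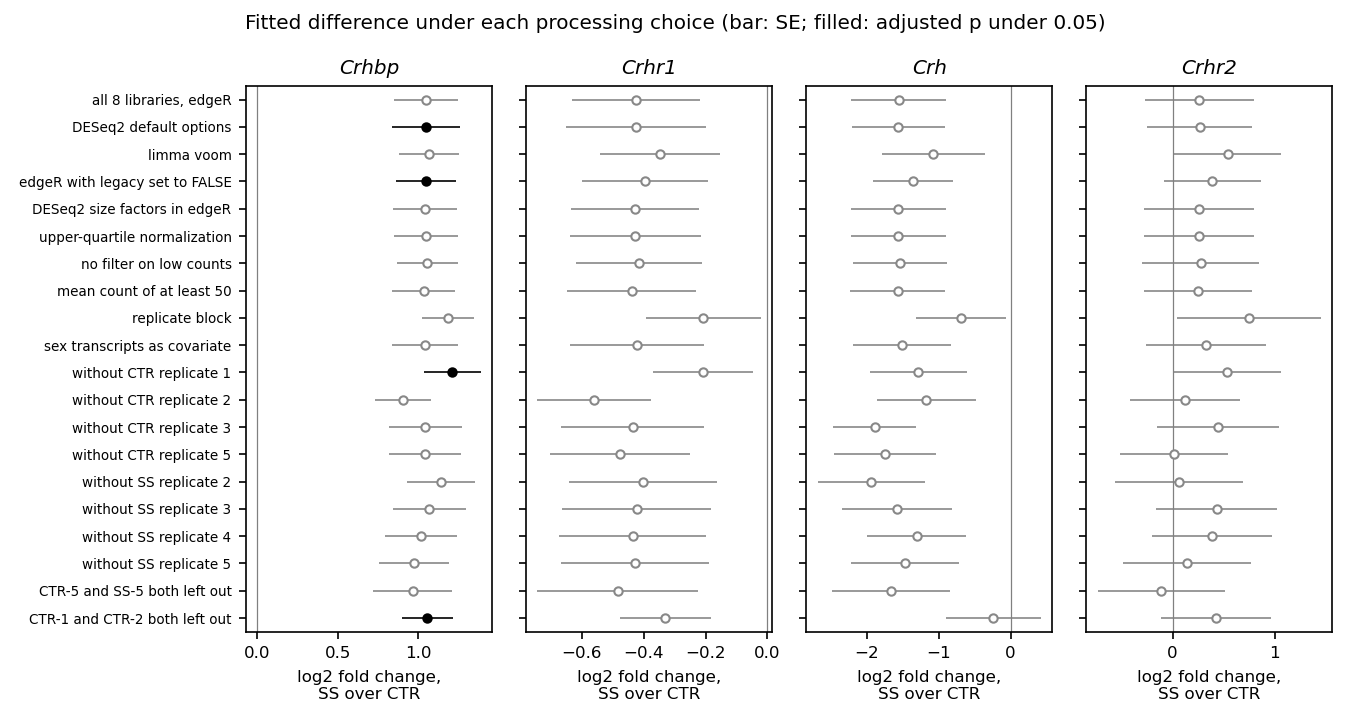
Fitted log2 fold change (SS over CTR, horizontal axis) of the 4 tested members under each processing choice (rows). Points are estimates, bars are 1 SE, and filled points have an adjusted p under 0.05. Crhbp stays between 0.91 and 1.21 in all rows, Crh moves from -1.94 to -0.24, and Crhr2 crosses 0.

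Levels of different genes were compared per kb of merged exon length. In CTR the order was Crhbp at 11.1 ± 2.91 CPM per kb, Crhr1 at 8.68 ± 2.65, Crh at 3.53 ± 2.51 and Crhr2 at 0.495 ± 0.256 (SD, n = 4 each). Over the 4 libraries the ranges of Crhbp and Crhr1 overlapped, while within each library Crhbp was the higher, at 14.8 against 12.4 CPM per kb in CTR-1 and 7.65 against 6.11 in CTR-2. Crh came close to Crhr1 in CTR-2, at 5.97 CPM per kb. In SS the order was the same, with Crhbp at 23.0 ± 3.42 CPM per kb, Crhr1 at 6.46 ± 0.189, Crh at 1.19 ± 0.637 and Crhr2 at 0.592 ± 0.222. The ranges of Crhbp and Crhr1 did not overlap there and those of Crh and Crhr2 did, although Crh was above Crhr2 within each library. The order of these 4 genes was thus the same in all 8 libraries, and Ucn and Ucn3 came below them in each.

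The balance between the binding protein and the receptor was read within each library, as the count of Crhbp over the count of Crhr1, a value that does not depend on the scaling between libraries. The ratio was 1.04 in CTR-5, 0.953 in CTR-3, 0.917 in CTR-2 and 0.876 in CTR-1. It was 2.98 in SS-5, 2.72 in SS-4, 2.50 in SS-3 and 2.21 in SS-2. CTR libraries were close to equal counts of the genes and every SS library held at least 2.21 counts of Crhbp per count of Crhr1. CTR-1, which had the highest Crhbp and Crhr1 of its group, had the lowest ratio, and CTR-2, with the lowest Crhbp, was next to it. On the log2 scale the ratio averaged -0.08 ± 0.11 over CTR and 1.37 ± 0.18 over SS (SD, n = 4 each), a difference of 1.45 that equals a 2.73-fold change of the ratio (exact two-sided permutation test, p = 0.029, the smallest possible). The difference was 1.43 without CTR-5 and SS-5 (exact permutation p = 0.10, the smallest that 3 against 3 allow) and 1.37 without CTR-1 and CTR-2 (exact permutation p = 0.067, the smallest that 2 against 4 allow). In these bulk samples, fewer cells of a type and less RNA per cell cannot be told apart, which holds for each gene here and for the ratio.

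**Figure D3:**
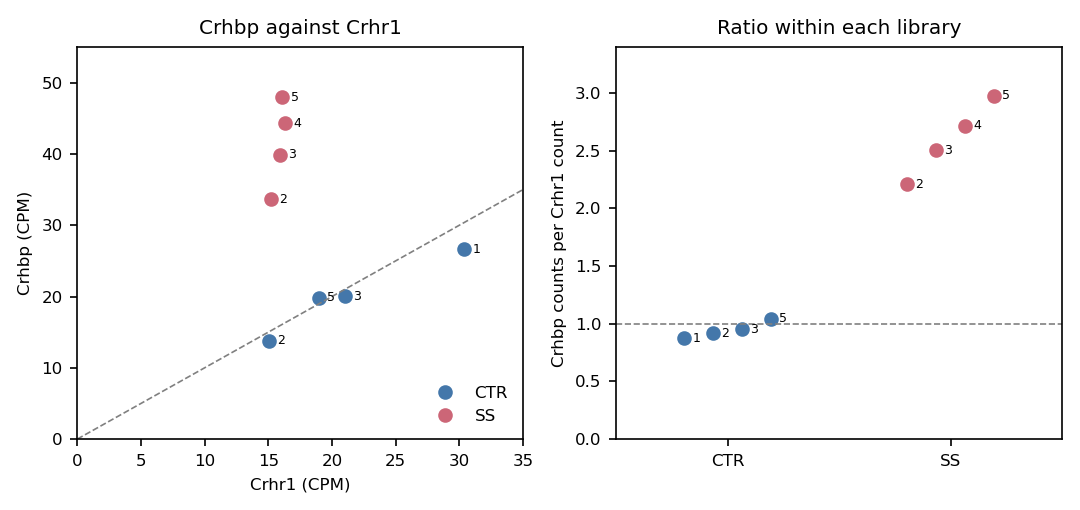
Left: Crhbp against Crhr1 in each library, both in CPM, with CTR in blue, SS in red and the dashed line marking equal values. Right: counts of Crhbp per count of Crhr1 within each library, with the dashed line at 1. CTR libraries lie along the line, at ratios of 0.876 to 1.04, and SS libraries lie above it, at 2.21 to 2.98.

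Other relations within libraries were described without a test, since they were chosen after the values were seen. Crhr2 made up 7.32% of the summed receptor level per kb in CTR-3, 5.71% in CTR-1, 5.27% in CTR-2 and 2.76% in CTR-5. Its share was 11.7% in SS-2, 10.1% in SS-5, 6.15% in SS-4 and 5.45% in SS-3, so the groups overlapped. The level of Crhbp per kb over that of Crh was 14.2 in CTR-3, 5.43 in CTR-5, 2.78 in CTR-1 and 1.28 in CTR-2. It was 48.0 in SS-4, 27.7 in SS-5, 17.6 in SS-3 and 9.21 in SS-2. Binding protein transcripts exceeded those of the hormone in all 8 libraries, with CTR-3 inside the range of SS.

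After each group's mean was subtracted, the log2 CPM of Crhbp and Crhr1 had a Pearson r of 0.88 over the 8 libraries, where it was -0.20 without that step. Within CTR the libraries with more Crhbp thus held more Crhr1, with CTR-1 highest and CTR-2 lowest in both. In SS, Crhr1 spanned only 15.2 to 16.3 CPM, so this r rests mostly on the CTR libraries. The other 5 pairs of tested members had r between -0.30 (Crh and Crhbp) and 0.54 (Crhr1 and Crhr2). All these values share the same libraries and are descriptions. The genes most like each member by this measure were Ppp1r3g (r = 0.99), Psma3 (0.98) and Gm44242 (0.97) for Crh. For Crhbp they were Dxo, Brms1 and Gnpat (0.99 each), and for Crhr1 they were Far2 and 1110051M20Rik (0.998 each) and Tsta3 (0.992). For Crhr2 they were Eif5b (0.99), Arl1 (0.97) and Micall2 (0.96). These are the 3 highest values among all tested genes over 8 libraries.

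Further genes of the pathway were taken as 6 lists, in which edgeR's quasi-likelihood test called 0 genes in either direction. All tested genes together had a median log2 fold change of 0.00, with 50.6% higher in SS. At an unadjusted p under 0.05 in edgeR's test, 2.85% of them were higher and 3.70% lower, and DESeq2 called 0.419% of its genes. Peptides and accessory genes related to CRH, such as vasopressin, oxytocin and melanocortin genes, passed the filter in 6 of 12 cases, 3 higher and 3 lower in SS, with a median of -0.03. None of these 6 had an unadjusted p under 0.05 or a DESeq2 call. The most abundant of them, the neuropeptide gene Adcyap1, was at 178 ± 35.7 CPM for CTR and 181 ± 11.8 CPM for SS (SD, n = 4 each). The smallest p was that of the melanocortin receptor gene Mc4r, at 2.43 ± 0.872 CPM for CTR and 1.28 ± 0.377 CPM for SS, with all SS values below CTR and an adjusted p of 0.78. Avp and Mc2r, as well as Ucn2, had no count in any library.

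The receptors of the same class B1 as the CRH receptors were tested in 10 of 13 cases, 6 higher and 4 lower, with a median of 0.17. At an unadjusted p under 0.05 there was 1 gene, which DESeq2 also called: the calcitonin receptor gene Calcr. Calcr was at 2.93 CPM in CTR-5, 2.84 CPM in CTR-1, 1.94 CPM in CTR-3 and 1.21 CPM in CTR-2. It was at 10.7 CPM in SS-3, 8.78 CPM in SS-2, 8.25 CPM in SS-4 and 4.27 CPM in SS-5, so every SS library lay above every CTR library. Its log2 fold change was 1.84 (SE 0.40), and the adjusted p was 0.26 by edgeR and 0.0030 by DESeq2. Adcyap1r1, the receptor of the Adcyap1 peptide and the most abundant of the list, was at 251 ± 39.9 CPM for CTR and 288 ± 13.9 CPM for SS, with no overlap and an adjusted p of 0.77. Gcgr and Ghrhr had no count.

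Genes that carry the receptor signal, namely G proteins, adenylyl cyclases, kinases and scaffolds, all passed the filter, and 15 of 38 were higher and 23 lower, with a median of -0.04. At an unadjusted p under 0.05, 2 were higher (Adcy3 and Adcy6) and 3 lower, among them Adcy2 and Prkca, and DESeq2 called 0. Gnas, which encodes the Gs subunit through which both CRH receptors act, was at 2494 ± 394 CPM for CTR and 2379 ± 47.5 CPM for SS. The kinase gene Prkca had the smallest p. Its log2 fold change was -0.86 (SE 0.24), all SS values were below CTR, and the adjusted p from edgeR was 0.57. Genes of receptor desensitisation and trafficking were higher in 5 and lower in 7 of 12 cases, with a median of -0.06, 1 unadjusted p under 0.05 and 0 DESeq2 calls. That gene was the arrestin gene Arrb2, at 55.02 ± 8.92 CPM for CTR and 69.5 ± 2.10 CPM for SS, with all SS values above CTR and an adjusted p of 0.75. The other arrestin gene, Arrb1, was the most abundant, at 315 ± 21.3 and 304 ± 5.13 CPM.

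Regulators of the Crh gene and genes of glucocorticoid feedback were higher in 6 and lower in 6 of 12 cases, with a median of 0.00. At an unadjusted p under 0.05, 2 were higher (Otp and Per1) and 2 lower (Sgk1 and Pou3f2), and DESeq2 called 0. Otp, a homeobox gene of hypothalamic neuroendocrine neurons, was at 1.34 CPM in CTR-3, 0.485 CPM in CTR-2, 0 in CTR-1 and 1.503 CPM in CTR-5. It was at 10.3 CPM in SS-4, 5.31 CPM in SS-3, 4.64 CPM in SS-2 and 2.20 CPM in SS-5, above CTR throughout. Its log2 fold change was 2.72 (SE 0.87), and the adjusted p from edgeR was 0.70. Tsc22d3, a glucocorticoid-induced gene and the most abundant of the list, was at 105 ± 14.01 CPM for CTR and 89.4 ± 4.84 CPM for SS, with overlap. Enzymes of peptide processing and degradation were higher in 4 and lower in 4 of 8 cases, with a median of 0.01, 2 unadjusted p-values under 0.05 (Cpe and Scg5), both lower in SS, and 0 DESeq2 calls. Cpe, carboxypeptidase E, had both the highest level and the smallest p, at 2112 ± 206 CPM for CTR and 1840 ± 54.4 CPM for SS (adjusted p = 0.75).

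Some of these directions moved with the libraries. Without CTR-5 and SS-5, edgeR's test again called 0 genes of the 6 lists, the median of the class B1 receptors was 0.42 over 9 tested genes, and 1 of the 6 tested peptide and accessory genes was higher (median -0.17). Signalling genes were then 19 higher and 19 lower, and the medians were 0.02 for desensitisation and trafficking (7 higher and 5 lower), 0.15 for regulators and feedback (8 and 4) and -0.02 for peptide processing (3 and 5). Without CTR-1 and CTR-2 it also called 0, the median was -0.01 over 11 tested class B1 receptors, and 6 of 7 peptide and accessory genes were higher (median 0.30). The medians were then -0.06 for signalling, -0.09 for regulators and feedback (4 and 8) and -0.06 for peptide processing (3 and 5).

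**Figure D4:**
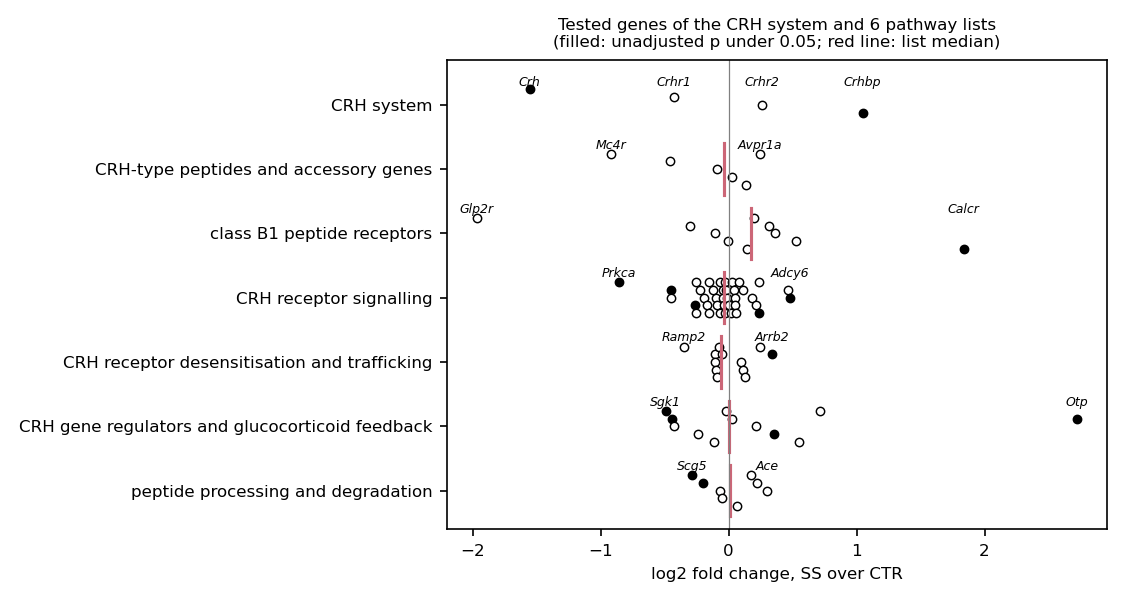
Log2 fold change (SS over CTR) of the tested members in the top row and of the tested genes of the 6 pathway lists below. Each point is a gene, filled where the unadjusted p was under 0.05, vertical red lines are list medians, and the genes at both ends of each list are named. The medians lie between -0.06 and 0.17, while Crhbp is at 1.05 and Crh at -1.56.

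Markers of the cell types that a VTA punch can hold were read in 16 lists. Counts in these lists stand against the same shares over all genes. These are 2.85% higher and 3.70% lower at an unadjusted p under 0.05, 0.0847% called by edgeR's test and 0.419% by DESeq2. The punches held dopamine neuron transcripts, the defining markers of the labelled region, at unequal levels. Of the 14 dopamine neuron markers, 13 were lower in SS and 6 were called lower by edgeR's quasi-likelihood test (9 by DESeq2), with a median of -1.28. Their summed level was 3364 CPM in CTR-1, 2947 CPM in CTR-5, 1960 CPM in CTR-2 and 1618 CPM in CTR-3. It was 783 CPM in SS-2, 737 CPM in SS-5, 727 CPM in SS-4 and 719 CPM in SS-3. The most abundant was Dlk1, at 523 ± 192 and 253 ± 70.6 CPM. None was at 0 throughout. The dopamine transporter gene Slc6a3 was at -6.22 and the tyrosine hydroxylase gene Th at -3.99 on the log2 fold scale. The other called genes were Ddc, Slc18a2, En1 and Aldh1a1. These values stand beside a log2 fold change of -0.42 for Crhr1 and 1.05 for Crhbp. Their part in the values of the CRH members was not tested. Without CTR-5 and SS-5, 4 of the 14 were called, and without CTR-1 and CTR-2, 6 were. In stained sections of other mice, the study reported similar numbers of dopamine neurons in the VTA of CTR and SS. That count covered the parabrachial pigmented and paranigral parts of the VTA. The study also reported lower dopamine transporter and tyrosine hydroxylase staining in the VTA of SS males, and smaller transporter currents.

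The hypothalamus and mammillary region lies next to the VTA and holds neurons that make CRH and its binding protein. Of 16 markers of that region, 12 were tested and all 12 were higher in SS, with a median of 0.77. edgeR's test called 0 of them, DESeq2 called 0, and 3 (Otp, Pmch and Hdc) had an unadjusted p under 0.05. Their summed level was 168 CPM in CTR-2, 132 CPM in CTR-3, 122 CPM in CTR-1 and 86.7 CPM in CTR-5. It was 225 CPM in SS-5, 209 CPM in SS-4, 173 CPM in SS-3 and 172 CPM in SS-2, above every CTR library. SS-5 was highest and SS-2 lowest of the SS libraries both in this sum and in Crhbp, whereas CTR-2, the highest CTR library in the sum, had the lowest Crhbp. Pmch, the melanin-concentrating hormone gene, was at 6.36 ± 7.40 CPM for CTR and 37.4 ± 8.68 CPM for SS, with no overlap (log2 fold change 2.54, adjusted p = 0.61). The separation of the sums rested on Pmch, at 16.7 CPM in CTR-2, 34.3 CPM in SS-2 and 32.1 CPM in SS-3. Without Pmch, the sum of CTR-2 would exceed those of SS-2 and SS-3. The rank of SS-5 as highest also rested on Pmch, at 50.3 CPM there, without which SS-5 would fall below SS-4. Of the 12 tested markers, 2 were above CTR in every SS library, as were 2.47% of all genes tested. Avp was at 0 in all 8 libraries. Without CTR-5 and SS-5, 9 of 12 were higher. Without CTR-1 and CTR-2, 12 of 12 were, and 1, Pmch, was called. The part of this region in the Crhbp difference was not tested.

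**Figure D5:**
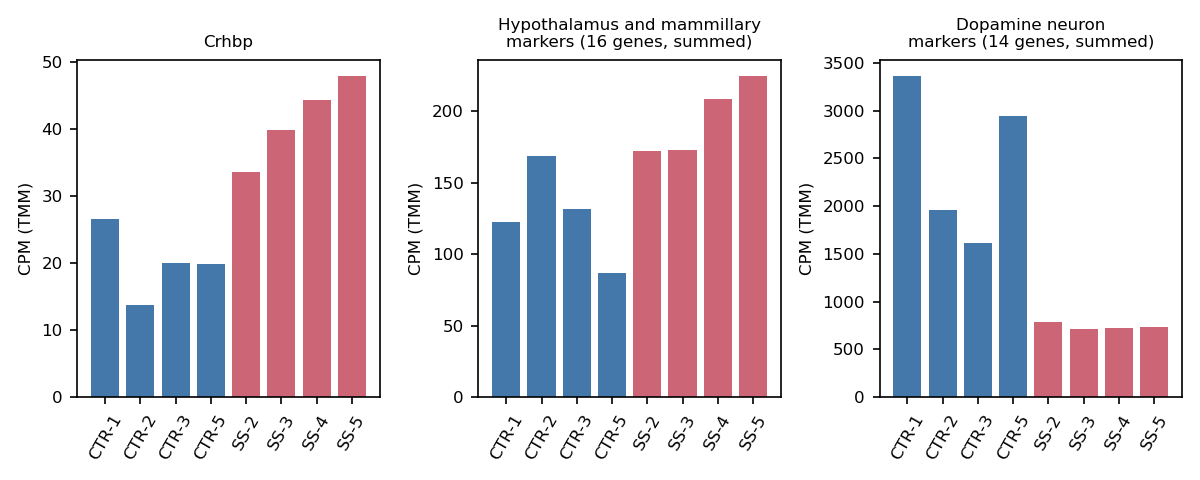
Crhbp, the summed markers of the hypothalamus and mammillary region and the summed dopamine neuron markers in each library, in TMM-scaled CPM, with CTR in blue and SS in red. Bars are single libraries. All SS bars are above all CTR bars in the first 2 panels and below them in the last, 719 to 783 CPM against 1618 to 3364 CPM. For the hypothalamus and mammillary sum this depends on Pmch, without which CTR-2 would exceed SS-2 and SS-3.

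Neurons of the Edinger-Westphal nucleus, near the midline above the VTA, are the main source of Ucn in the midbrain. Of 6 markers, Ucn included, 5 were tested, 3 higher and 2 lower, with a median of 0.02 and 0 called by edgeR's test. Their sum was 290, 191, 208 and 245 CPM in the CTR libraries and 192, 224, 190 and 217 CPM in the SS libraries. Adcyap1 made up most of it. Cartpt was at 4.62 ± 3.16 and 5.50 ± 2.20 CPM in libraries where Ucn was at or near 0. At an unadjusted p under 0.05 there was 1 gene, Cck, lower in SS with no overlap (log2 fold change -1.63, adjusted p = 0.32), which DESeq2 called. The median turned to -0.06 without CTR-5 and SS-5 (1 higher and 4 lower) and was 0.18 without CTR-1 and CTR-2 (4 higher and 1 lower).

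Cortex and hippocampus express Crhr1, and their excitatory neurons were followed by 6 markers, 1 higher and 5 lower, with a median of -0.67. edgeR's test called 0, 2 had an unadjusted p under 0.05 (Nrgn and Slc17a7), and DESeq2 called Nrgn. Their sum was 1764 CPM in CTR-5, 1174 CPM in CTR-2, 712 CPM in CTR-3 and 514 CPM in CTR-1, and between 550 CPM in SS-4 and 579 CPM in SS-2. The most abundant was Camk2a, at 531 ± 300 and 337 ± 12.6 CPM, and none was at 0 throughout. The part of such tissue in the Crhr1 values was not tested. The median was -0.19 without CTR-5 and SS-5, with 2 higher, 4 lower and 0 called, and -1.02 without CTR-1 and CTR-2, where all 6 were lower and Nrgn was called. The choroid plexus and ependyma list, with 3 of 6 tested, had sums of 14.7, 21.05, 35.3 and 253 CPM in CTR and 20.4 to 25.3 CPM in SS. The 253 CPM of CTR-5 came mostly from Ttr, at 234 CPM, and Tmem212 was at 0. Its median was -0.16, with 1 higher, 2 lower, 0 called by edgeR's test or DESeq2 and 1 unadjusted p under 0.05. That direction depended on the libraries, since without CTR-5 and SS-5 the median was 0.17, with 2 higher and 1 lower, and without CTR-1 and CTR-2 it was -0.34.

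In the other 11 lists edgeR's test called 0 genes. GABA neuron markers had a median of 0.07 (5 higher and 3 lower of 8), and midbrain and hypothalamic glutamate neuron markers one of -0.64 (1 higher and 5 lower of 6). Markers of the habenula and interpeduncular region had -0.16 (2 higher and 3 lower of 5), and those of the thalamus -0.41 (1 higher and 4 lower of 5). Astrocyte markers had -0.04 (3 and 3 of 6), oligodendrocyte markers -0.12 (1 and 6 of 7), microglia markers -0.13 (0 and 7 of 7) and endothelial and mural cell markers 0.24 (6 and 1 of 7). Each of these neuronal and glial lists except astrocyte had 1 lower gene at an unadjusted p under 0.05, the habenula list also had 1 higher, and the astrocyte and endothelial lists had 0. DESeq2 called Pvalb of the GABA list and Tac2 of the habenula list. The most abundant gene was Calb2 in both the glutamate and the thalamus list, Lrrc55 in the habenula list, Slc1a2 in the astrocyte list, Mbp in the oligodendrocyte list and Rgs5 in the endothelial and mural list. Cholinergic and oculomotor neuron markers (4 of 7 tested, 2 higher and 2 lower, median -0.18) summed to at most 10.3 CPM, and Tbx20 was at 0. Serotonin neuron markers (2 of 5 tested, 1 higher and 1 lower, median 0.51) lacked a testable level of Tph2, Slc6a4 and Fev, and Htr1a made up most of their sum. Pituitary markers were near 0, with Gh, Prl and Pou1f1 at 0 and 1 of 6 tested, Pomc, at 3.398 ± 2.03 and 2.47 ± 1.12 CPM. These 3 lists had no gene at an unadjusted p under 0.05 and no DESeq2 call.

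edgeR's test also called 0 genes of these 11 lists without either pair of libraries, but several directions turned. Without CTR-1 and CTR-2 the oligodendrocyte markers had a median of 0.05 (6 higher and 1 lower of 7), the cholinergic and oculomotor markers one of 0.38 (3 and 1 of 4) and Pomc a value of 0.30. The habenula and interpeduncular markers had 0.06 (3 and 2 of 5) and the astrocyte markers 0.07 (3 and 3 of 6) without CTR-5 and SS-5. Medians that kept their sign and moved by over 1.5 times were, without CTR-5 and SS-5, those of the GABA (0.15), thalamus (-0.24), oligodendrocyte (-0.23), microglia (-0.29) and cholinergic lists (-0.71), and Pomc was at -0.75. Without CTR-1 and CTR-2 they were those of the glutamate (-0.26), astrocyte (-0.10), microglia (-0.07), endothelial and mural (0.10) and serotonin lists (0.10, 4 genes tested).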

How the data were processed

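RNA from bilateral VTA punches was sequenced as single-end reads for 4 CTR and 4 SS mice. The authors used cutadapt for trimming, STAR for alignment to mm10 and HTSeq for counting, and deposited whole counts per gene that are not normalized. Library totals ranged from 20036086 to 47319997 counts. Whether counting used strand is not given in the sources used here.

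Counts were analysed in R 4.3.3 with edgeR 4.0.16. Genes were kept with filterByExpr (minimum count 10, minimum total 15), normalized with TMM and compared with glmQLFit and glmQLFTest at their installed defaults, in a model of group alone with Benjamini-Hochberg adjusted p-values. The 95% intervals use the SE implied by the test statistic. Exact permutation tests used log2 CPM (prior count 2), and the ratio used 0.5 added to each count. The edgeR, DESeq2 and voom fits were tested on simulated data. Alternatives were DESeq2 1.42.0, limma 3.58.1 (voom), other scalings, filters and covariates, and libraries left out. Fits of the marker and pathway lists without pairs of libraries were chosen after seeing the data.

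The members and lists were chosen with earlier results of these data known. The genes named are the members, Ucn2, and for each list its called genes, its most abundant gene and, for pathway lists, the gene with the smallest p. To these come markers at 0, Slc6a3, Th, the sex-linked genes and the 3 genes most like each tested member. Other genes, such as Pmch, Cck and those given at an unadjusted p under 0.05, were named after their values were seen. Some genes that these rules select are not reported here. Positions and exon lengths are from GENCODE M21 on GRCm38, the build of mm10.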

Additional observations from a re-analysis of the deposited data

Results flagged for a closer look

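A library far from the other 3 of its group was found in 11 of the 74 groups of 4 values checked. In 5 of the 11 the gene had counts in 1 library of its group or was a sex-linked gene already known to set CTR-5 and SS-5 apart, so although chance flags about 1 in 20 groups, the number is not a comparison with chance. The measure is the gap of the highest or lowest library to its neighbour as a share of the group's range, set against Dixon's 95% limit for 4 values. Ucn in SS-2 (0.191 CPM, the others at 0) and Ucn3 in SS-5 (0.462 CPM, the others at 0) both gave 1.0. Xist in CTR-5 (382 CPM) and in SS-5 (252 CPM) also gave 1.0, and the summed Y-linked genes in SS-5 (0 CPM) gave 0.907. Among the pathway genes, Adcyap1r1 was low in CTR-1 (191 CPM, 0.918). Arrb2 was low in SS-2 (66.3 CPM, 0.932). Gnas was high in SS-2 (2450 CPM, 0.904). Of the cell type markers, Pmch was high in SS-5 (50.3 CPM, 0.877), Th was high in SS-5 (25.5 CPM, 0.853) and Ttr was high in CTR-5 (234 CPM, 0.934). None of the groups for Crh, Crhbp, Crhr1 or Crhr2 passed the limit.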

How the results depend on the processing

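The log2 fold changes of Crh, Crhbp and Crhr1 kept their sign under all 19 alternatives to edgeR's test at its defaults. That of Crhr2 did in 18 and turned to -0.11 without CTR-5 and SS-5. Crhbp was past the adjusted threshold with DESeq2 (1.05, adjusted p = 0.00051), with edgeR's legacy option off (1.05, 0.032), without CTR-1 and CTR-2 (1.06, 0.047) and without CTR-1, and short of it in the other 15. Without 1 library it ranged from 0.91 to 1.21, and its adjusted p from 0.035 to 0.58. The cause was not tested. The difference in mean CPM of Ucn ranged from 0 to 0.0635 and that of Ucn3 from 0 to 0.154 without 1 library, and that of Ucn3 was 0 without CTR-5 and SS-5. These genes were under edgeR's filter, and DESeq2 gave log2 fold changes for them (2.751, SE 3.431, for Ucn and 4.004, SE 3.4035, for Ucn3) without an adjusted p. In edgeR's fit without a filter the adjusted p was 0.56 for each.

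The difference between SS and CTR in the log2 ratio of Crhbp to Crhr1 ranged from 1.38 to 1.53 without 1 library. It was 1.43 without CTR-5 and SS-5 and 1.37 without CTR-1 and CTR-2, with fewer libraries than the permutation test needs to reach 0.05. The number of genes called was 14, with 81 by DESeq2, 27 with the legacy option off (2 higher and 25 lower), 22 without a filter, 22 at a mean count of at least 50, 9 without CTR-5 and SS-5, 7 at an adjusted p under 0.01 and 6 to 19 without 1 library.

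The replicate numbers 2, 3 and 5 occur in both groups. Between libraries of the same number, deviations from the group means had r = -0.01, -0.01 and 0.06. Such values do not show whether these libraries shared a litter or a day of collection. CTR-5 and SS-5 share sex transcripts that go against their label. With the replicate block, 9 genes were called. The difference in the log2 ratio was then 1.39 (exact permutation p = 0.25, the smallest that 3 pairs allow). The log2 fold changes were 1.18 for Crhbp, -0.21 for Crhr1, 0.75 for Crhr2 and -0.69 for Crh.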
